A study of Homo sapiens with 4 samples.

Results

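The ABC transporter genes were examined in PC3 prostate cancer cells that had been sorted by a stem cell reporter. They are the 46 genes, of 57963 in the deposited tables, whose symbol is ABC followed by a family letter from A to G and a number. PC3 is a human cell line derived from a bone metastasis of prostate cancer. The cells carried the lentiviral SORE6-dsGFP reporter, in which response elements for SOX2 and OCT4 drive a destabilized GFP, and were kept under puromycin selection (5 µg/mL) in medium with 10% serum, at passages 18 to 22. RNA was sequenced from 2 libraries of cells in the GFP+ gate (SORE6+, cancer stem cells in the labels) and from 2 libraries of cells in the GFP- gate (SORE6-, non cancer stem cells in the labels), all from 1 cell line. Per the study's methods the sorts were done as separate pairs, and the labels number the replicates of each gate 1 and 2.

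ABC proteins share a domain that binds and hydrolyses ATP, and most use this energy to move a substrate across a membrane. Families B, C and G hold the pumps that export drugs and conjugates from cells, P-glycoprotein being the best known carrier of taxanes. Family A and part of family G move lipids, family D serves peroxisomes and lysosomes, and families E and F have no membrane domain and act on ribosomes. In tumors the drug pumps have been studied as a means of resistance, and a high activity of ABCG2 has been used to sort stem-like cells.

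Values are in TPM, the length-corrected share of a gene among all transcripts of a library, which can be compared between genes and does not hold the sequencing depth. Each library adds up to 1000000 TPM. The epithelial genes KRT8, KRT18 and EPCAM were at 189 to 1162 TPM. Within the replicate 1 and 2 pairs, EPCAM (log2 difference −0.17 and −0.26) and KRT18 (−0.045 and −0.30) were lower in SORE6+ cells. KRT8 went both ways (0.17 and −0.14). The androgen target KLK3 was listed at 0 in every library. VIM, an intermediate filament gene, was at 237 and 142 TPM in SORE6+ cells, against 155 and 74.0 TPM in SORE6- cells. It did not pass in the limma fit on the gate alone, and passed with the replicate number as a further term on protein-coding genes (log2 difference 0.77, limma adjusted p = 0.0208). In the latter fit EPCAM had a log2 difference of −0.22 (limma adjusted p = 0.0751), which is below 1.5-fold. Markers of leukocytes (PTPRC and CD3E) were at 0.746 TPM or less and those of fibroblasts (COL3A1 and PDGFRB) at 1.21 TPM or less. The endothelial markers PECAM1 and CDH5 summed to 12.1 to 14.0 TPM in SORE6+ cells, nearly all of it PECAM1. This sum was higher in both SORE6- libraries. CDH5 alone went the other way, at 0.232 and 0.102 TPM in SORE6+ cells, against 0.0613 and 0.0918 TPM in SORE6- cells. The part of these markers in the results was not tested. All libraries came from sorted PC3 cells. With bulk RNA, fewer cells that express a gene and less of its RNA per cell cannot be told apart. Of the reporter's factors, POU5F1, which encodes OCT4, had 3.09 and 2.61 TPM in SORE6+ cells, against 2.82 and 2.14 TPM in SORE6- cells, and SOX2 was at 0.0803 TPM or less in every library. These are RNA levels. The study measured both proteins by flow cytometry and reported more of each in SORE6+ PC3 cells. In limma on these TPM values none of the 17642 genes tested passed as higher or lower in SORE6+ cells, and the unadjusted p was under 0.05 for 673. The study used another test, DESeq2, and reported genes past an FDR of 0.1 and 1.5-fold in both directions. The lack of passing genes in limma is thus no evidence that the gates were alike.

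PC3 cells expressed a limited part of this family. Of the 46 genes, 26 reached 1 TPM in at least 2 libraries and were tested, and 19 of these averaged 10 TPM or more. The other 20 stayed at 2.13 TPM or less in every library, and 14 of them at 0.5 TPM or less. The 3 most abundant members, ABCE1, ABCF3 and ABCF1, are cytosolic proteins that transport nothing. The summed level of all 46 genes was 664 and 625 TPM in SORE6+ cells and 679 and 652 TPM in SORE6- cells, so the gates overlapped.

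**Figure D1:**
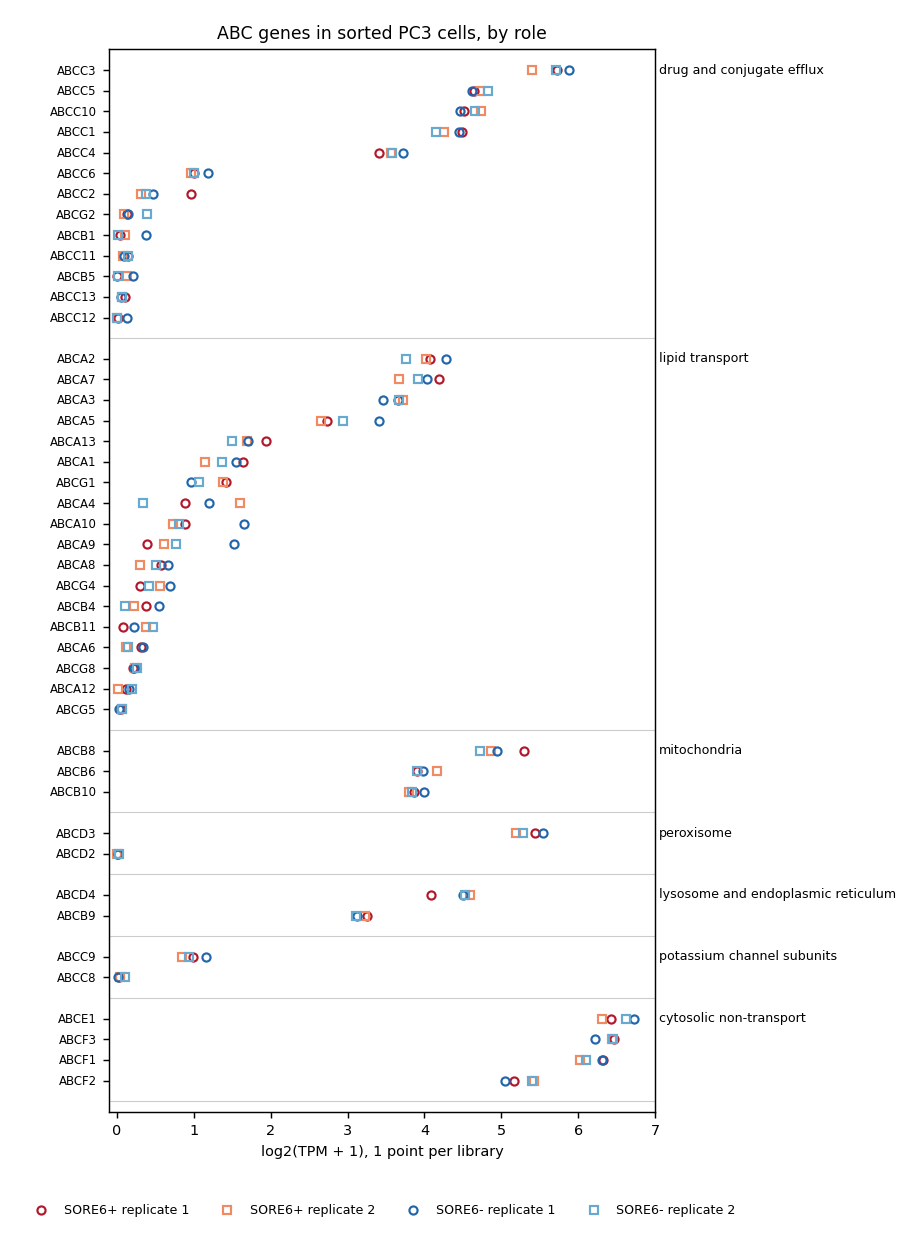
Level of 44 of the 46 ABC genes on the scale of log2(TPM + 1), with 1 point per library and the genes grouped by role and ordered by mean level. Red and orange symbols are SORE6+ and blue symbols SORE6- libraries, circles replicate 1 and squares replicate 2. ABCE1, ABCF3 and ABCF1 lie furthest to the right, and most drug pumps and lipid transporters lie near 0.

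Tested members and members below the level of the test had different median promoter compositions. RefSeq promoter windows of GRCh38.p14, which hold 250 bases before and 50 bases after a transcription start, were at hand for 35 of the 46 genes, and the window with the most CpG dinucleotides was taken for each. The 20 tested members with a window had a median of 29 CpG and a GC content of 67.5%, and the 15 members below the level of the test had 8 CpG and 50.7%. Over protein-coding genes with a window the same medians were 28 CpG and 67% for 9963 tested genes and 8 CpG and 56.7% for 4653 others, so the contrast was not particular to this family. The drug pump gene ABCG2, though barely expressed, had a window with 35 CpG, and the expressed ABCA13 had 3.

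A pair of genes of the chromosome 17 cluster, whose levels are given further on, show both kinds of promoter. The stretches below lie before the start on the minus strand of GRCh38.p14, outside the exons of GENCODE v29, from chr17:69327245-69327383 for ABCA5 and from chr17:69141896-69142145 for ABCA6, and CG is in capitals.
ABCA5: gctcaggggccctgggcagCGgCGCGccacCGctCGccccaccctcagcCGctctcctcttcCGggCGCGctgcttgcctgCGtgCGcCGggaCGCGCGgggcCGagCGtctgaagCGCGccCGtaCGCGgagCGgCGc
ABCA6: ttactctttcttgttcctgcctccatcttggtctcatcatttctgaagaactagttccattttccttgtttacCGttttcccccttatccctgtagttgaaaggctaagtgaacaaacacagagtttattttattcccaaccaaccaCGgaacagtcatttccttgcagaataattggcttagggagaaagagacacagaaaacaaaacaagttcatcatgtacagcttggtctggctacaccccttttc
The ABCA5 stretch holds 24 CG in 139 bases at 79.9% GC, and the ABCA6 stretch holds 2 CG in 250 bases at 40.8% GC. ABCA5 averaged 6.80 TPM over the 4 libraries and ABCA6 averaged 0.176 TPM.

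**Figure D2:**
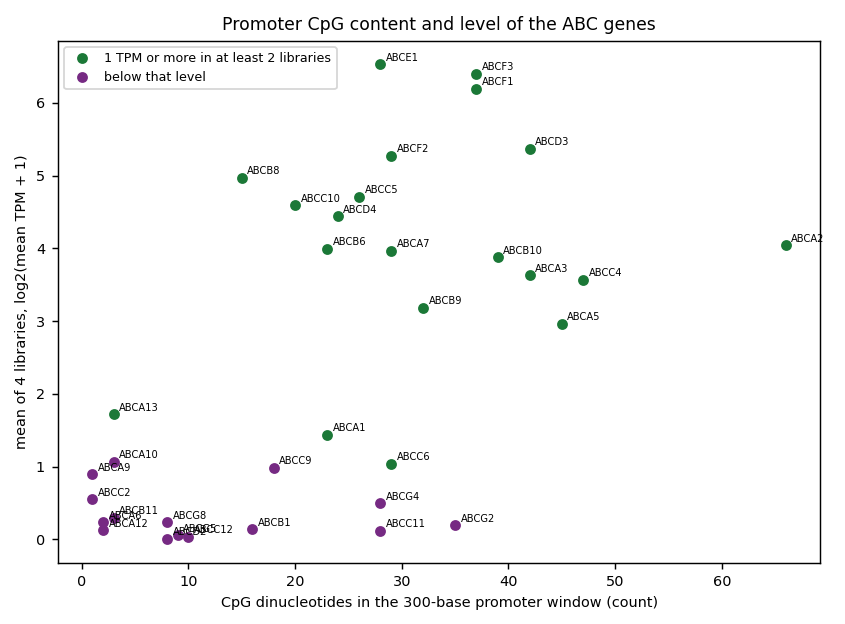
CpG dinucleotides in the 300-base promoter window (horizontal axis, count) against the mean level over the 4 libraries (vertical axis, log2 of the mean TPM + 1) for the 35 ABC genes with a window. Green points are members with 1 TPM or more in at least 2 libraries and purple points are the others. ABCE1, ABCF3 and ABCF1 lie at the top with 28 to 37 CpG, and ABCG2 lies at the bottom with 35.

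Because the reporter answers to SOX2 and OCT4, the windows were also searched on both strands for the octamer ATTTGCAT and for the SOX core ACAATG, which do not overlap. The octamer occurred in 1.77% of all 35116 windows and in 1 of the 53 windows of members, that of ABCB6. The SOX core occurred in 10.8% of all windows and in 2 windows of members, those of ABCA9 and ABCC11. Below are the ABCB6 match from chr2:219219067-219219096 and the ABCA9 match from chr17:69060974-69061003, both on the minus strand, with the motif in capitals.
ABCB6: ctgcttctctaATTTGCATtcgttgcctgc
ABCA9: acagaactattcACAATGaatgtgaaatta
A match is a description of the letters and no measurement of binding. ABCB6, which encodes a porphyrin transporter, was at 14.0 and 16.9 TPM in SORE6+ cells, against 14.8 and 13.9 TPM in SORE6- cells, and the gates overlapped.

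Between the gates no ABC gene passed the test. Differences are of log2(TPM + 1) and understate the change of low genes. In them 13 of the 26 tested members had a positive and 13 a negative difference of SORE6+ minus SORE6-, with a median of −0.0027 against −0.054 over all genes tested. The largest difference of a member was a fold of 1.39. The thresholds were a limma adjusted p under 0.1 together with a 1.5-fold difference, and 0% of all genes tested passed them in either direction. Every tested member had an adjusted p of 0.9999 in limma with Benjamini-Hochberg adjustment, and 1 of them, ABCE1, had an unadjusted p under 0.05, against 3.81% of all genes tested. With 2 libraries against 2, an exact two-sided permutation test of a single gene cannot give a p below 0.333.

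With the replicate number as a further term and protein-coding genes alone, 0 members passed as higher and 0 as lower, against 0.554% and 0.725% of the genes in that fit, and 2 members had an adjusted p under 0.1 in limma at any fold, against 10.2%.

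The gates did not overlap, with SORE6+ cells the higher, in 3 of the 26 members (11.5%), ABCG1 and ABCB9 among them, against 10.9% of all genes tested. They did not overlap, with SORE6+ cells the lower, in 5 members (19.2%), ABCE1, ABCA5, ABCC4 and ABCC6 among them, against 20.2% of all genes tested. Both shares are close to those of all genes. Compared within the pair of the same replicate number, 9 members (34.6%) were higher in SORE6+ cells in both pairs, against 23.2% of all genes tested, and 8 (30.8%) were lower in both, against 42.3%.

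**Figure D3:**
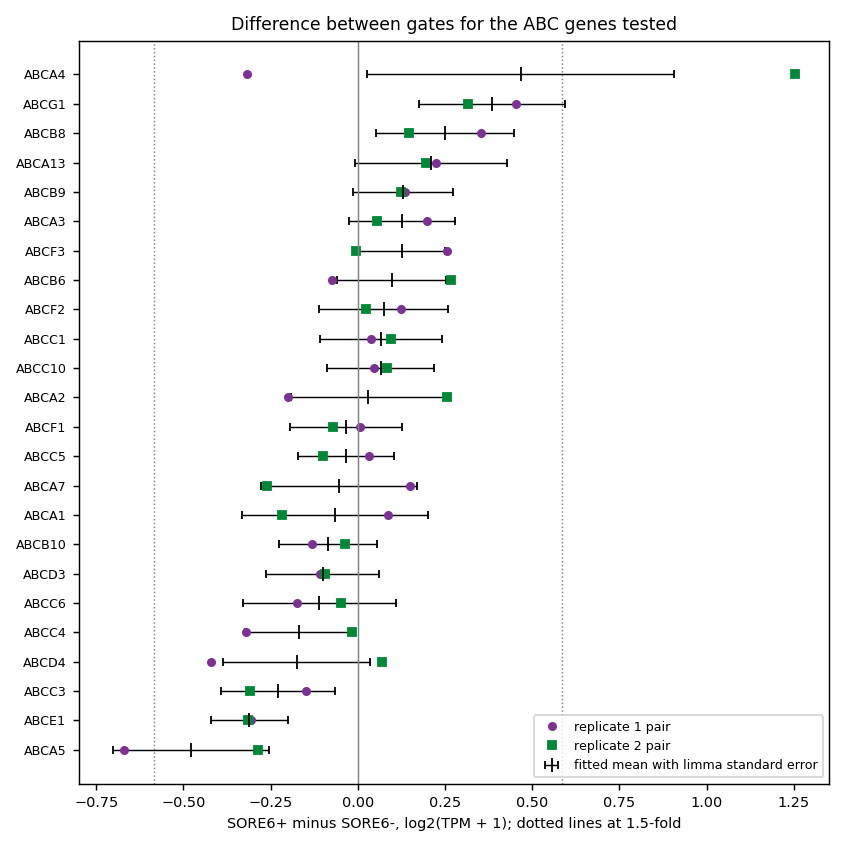
Difference of SORE6+ minus SORE6- cells in log2(TPM + 1) for 24 of the 26 tested ABC genes. Purple circles and green squares give the replicate 1 and replicate 2 pairs, ticks with bars give the fitted mean with its limma standard error, and dotted lines mark 1.5-fold. No fitted mean reaches a dotted line, and the pairs of ABCA4 lie on opposite sides of 0.

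Among the pumps of drugs and conjugates, the PC3 cells expressed members of family C and hardly P-glycoprotein or ABCG2. ABCC3 (MRP3), which exports glucuronides and bile salts, was the most abundant of the 13 genes of this role. It was at 52.0 and 41.2 TPM in SORE6+ cells, against 57.7 and 51.3 TPM in SORE6- cells. The higher SORE6+ library exceeded the lower SORE6- library, so the gates overlapped (log2 difference −0.23, standard error 0.16). Within pairs of the same replicate number, ABCC3 was lower in SORE6+ cells in both (−0.15 and −0.31), as were 42.3% of all genes tested.

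ABCC5 (MRP5), a carrier of cyclic nucleotides, was at 24.0 and 25.5 TPM in SORE6+ cells, against 23.5 and 27.4 TPM in SORE6- cells. ABCC10 (MRP7), which carries taxanes in transfected cells, was at 21.7 and 25.7 TPM in SORE6+ cells, against 21.0 and 24.1 TPM in SORE6- cells. In both genes the gates overlapped. ABCC1 (MRP1; GRCh38 chromosome 16, 15949577 to 16143074) exports glutathione conjugates and several cytostatic drugs. The gene had 21.4 and 18.0 TPM in SORE6+ cells and 20.8 and 16.8 TPM in SORE6- cells, and each replicate 1 library was higher than both libraries of replicate 2. Its mean of 19.7 ± 2.36 TPM in SORE6+ cells and 18.8 ± 2.80 TPM in SORE6- cells (SD, n = 2 each) gave a log2 difference of 0.07 with a standard error of 0.17, which is within the spread between replicates.

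ABCC4 (MRP4), an exporter of cyclic nucleotides, was at 9.59 and 10.8 TPM in SORE6+ cells, against 12.2 and 10.9 TPM in SORE6- cells. The gates did not overlap, but the upper SORE6+ and lower SORE6- libraries nearly met. ABCC6, whose product is needed for release of ATP from liver cells, was near the limit of the test at 0.946 to 1.27 TPM, and 23.0% of the 31-base sequences of its transcripts also occur in other genes, mostly in the pseudogene ABCC6P1. The count of this role in limma was 0 of 6 tested genes in each direction.

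The P-glycoprotein gene ABCB1 (chromosome 7, 87503633 to 87713323) had 0.0278 and 0.0734 TPM in SORE6+ cells and 0.301 and 0.0105 TPM in SORE6- cells. Its highest and its lowest value both fell in the SORE6- gate. ABCG2, the breast cancer resistance protein gene on chromosome 4 from 88090264 to 88231322, was at 0.0981 and 0.0625 TPM in SORE6+ cells, against 0.106 and 0.308 TPM in SORE6- cells. Both SORE6+ libraries were below both SORE6- libraries, at levels too low for the test. TPM does not hold the number of reads behind such values, so no counting error can be given for them.

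ABCC2 (MRP2), the conjugate pump of bile canaliculi, was at 0.942 and 0.244 TPM in SORE6+ cells, against 0.381 and 0.298 TPM in SORE6- cells, and 1 SORE6+ library stood above the other 3. ABCB5, ABCC11, ABCC12 and the pseudogene ABCC13 were at 0.153 TPM or less in every library. The role as a whole summed to 131 and 123 TPM in SORE6+ cells and 138 and 132 TPM in SORE6- cells. Each SORE6+ sum was below both SORE6- sums, but no test was made of the sums. ABCC3 made up the largest part of each sum, and its own gates overlapped though it was lower in SORE6+ cells in both pairs. Of the 6 tested genes of this role, 2 had a higher and 4 a lower mean difference in SORE6+ cells.

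**Figure D4:**
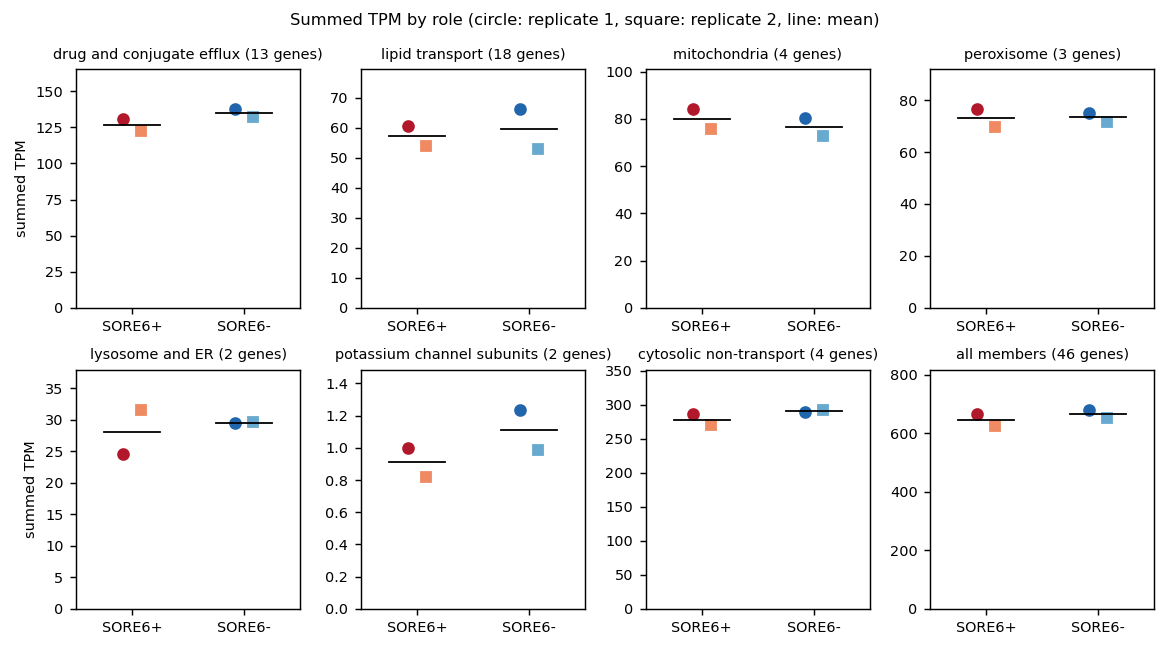
Summed TPM of the ABC genes of each role and of all 46, with SORE6+ libraries at left and SORE6- libraries at right, circles for replicate 1, squares for replicate 2 and lines for the mean. Each panel has its own vertical axis, which starts at 0. The sums of drug and conjugate efflux, 131 and 123 TPM in SORE6+ cells and 138 and 132 TPM in SORE6- cells, differ little beside their size.

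Of 18 lipid transporters, 8 were tested, and 5 had a higher and 3 a lower mean difference in SORE6+ cells, with 0 past the test in each direction. ABCA2, a carrier of the lysosomal membrane that is abundant in the brain, was at 15.8 and 15.2 TPM in SORE6+ cells, against 18.4 and 12.5 TPM in SORE6- cells. Both SORE6+ libraries lay between the SORE6- libraries. ABCA7, a phospholipid transporter, was at 17.2 and 11.7 TPM in SORE6+ cells, against 15.4 and 14.1 TPM in SORE6- cells, and here both SORE6- libraries lay between the SORE6+ libraries. ABCA3, which loads surfactant lipid in the lung, was at 10.0 to 12.1 TPM.

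The pair that exports cholesterol from cells, ABCA1 to lipid-poor apolipoprotein and ABCG1 to lipoprotein particles, was low. ABCG1 (chromosome 21, 42199689 to 42297244) was at 1.67 and 1.60 TPM in SORE6+ cells, against 0.950 and 1.09 TPM in SORE6- cells. The gates did not overlap, and the ratio of the means was 1.60 (log2 difference 0.38, standard error 0.21, unadjusted p = 0.135 in limma). ABCA1 was at 2.12 and 1.22 TPM in SORE6+ cells, against 1.93 and 1.58 TPM in SORE6- cells, with both SORE6- libraries between those of the other gate. Both genes are known targets of the sterol receptor LXR.

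ABCA4, which clears retinoids in photoreceptors, had the largest positive difference of a member, but its libraries did not separate. It was at 0.840 and 2.02 TPM in SORE6+ cells, against 1.30 and 0.268 TPM in SORE6- cells, a log2 difference of 0.47 with a standard error of 0.44. Within pairs the difference was −0.32 for replicate 1 and 1.25 for replicate 2. ABCA13, one of the longest ABC proteins, was at 2.82 and 2.24 TPM in SORE6+ cells, against 2.27 and 1.83 TPM in SORE6- cells, a log2 difference of 0.22 in the replicate 1 pair and 0.20 in the other.

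ABCA5 had the largest negative difference. It was at 5.66 and 5.28 TPM in SORE6+ cells, against 9.60 and 6.65 TPM in SORE6- cells. The gates did not overlap, and the SORE6- library of replicate 1 stood above the other 3. The log2 difference was −0.48 (standard error 0.22, unadjusted p = 0.0949 in limma), with −0.67 between the replicate 1 libraries and −0.29 between those of replicate 2. Leaving out 1 library moved it over a range of −0.71 to −0.24, the smallest size being without the SORE6- library of replicate 1.

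ABCA5 lies at the end of a cluster of 5 ABCA genes on the minus strand of chromosome 17, from 68867292 to 69327244, in the order ABCA8, ABCA9, ABCA6, ABCA10 and ABCA5. Little is known of what they carry. The cluster was singled out after its values were seen, so they are given without a test. All 5 genes were lower in SORE6+ cells in both pairs, as were 42.3% of all genes tested. Only ABCA5 of the 5 was tested. Of the genes of the series below the level of the test, 60% had a lower mean in SORE6+ cells. For ABCA6 the log2 difference was only −0.026 and −0.031 in the replicate 1 and 2 pairs. ABCA10 was at 0.842 and 0.660 TPM in SORE6+ cells, against 2.13 and 0.757 TPM in SORE6- cells. ABCA9 was at 0.317 and 0.532 TPM in SORE6+ cells, against 1.88 and 0.703 TPM in SORE6- cells. In both, as in ABCA5, the SORE6- library of replicate 1 was far above the other 3 libraries.

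ABCA8 was at 0.490 and 0.233 TPM in SORE6+ cells, against 0.584 and 0.421 TPM in SORE6- cells, and ABCA6 was at 0.243 and 0.0868 TPM in SORE6+ cells, against 0.266 and 0.110 TPM in SORE6- cells. In these 2 genes the gates overlapped and the replicate 1 libraries were the higher ones. The sum over the 5 genes was 7.55 and 6.79 TPM in SORE6+ cells and 14.5 and 8.65 TPM in SORE6- cells. Of the fibroblast markers, COL3A1 was at 0.431 and 0.382 TPM in SORE6+ cells, against 1.21 and 0.256 TPM in SORE6- cells. Its highest value fell in the same SORE6- library. PDGFRB was at 0.0255 and 0.0405 TPM in SORE6+ cells, against 0.0262 and 0.205 TPM in SORE6- cells. Its highest value fell in the other SORE6- library. Every library came from sorted PC3 cells, and the part of these markers in the result was not tested. The part of transcript sequence, in 31-base words, found in other genes too was 11.1% for ABCA9, 9.74% for ABCA10 and 2.76% for ABCA5, the last mostly in ABCA10, which overlaps it.

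**Figure D5:**
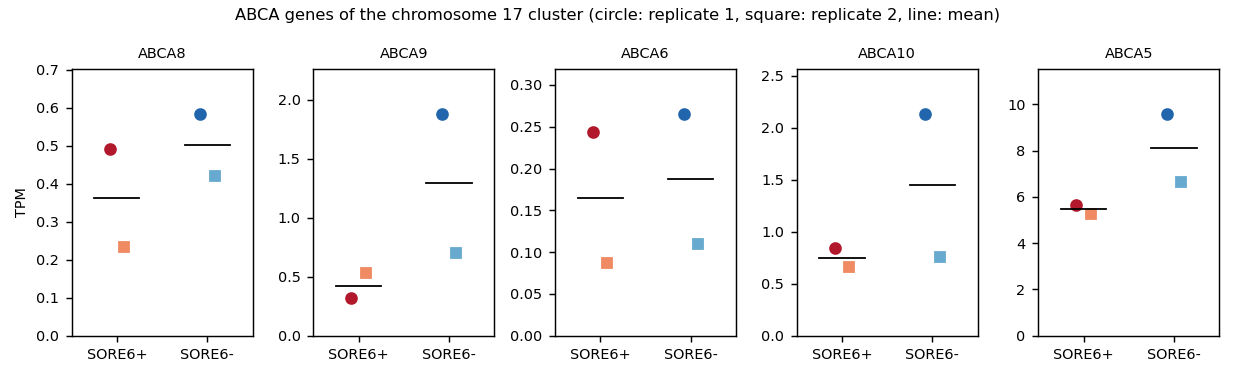
TPM of the 5 ABCA genes of the chromosome 17 cluster, in their order along the chromosome, with SORE6+ libraries at left and SORE6- libraries at right, circles for replicate 1, squares for replicate 2 and lines for the mean. Each panel has its own vertical axis from 0. The SORE6- library of replicate 1 is the highest point in every panel, at 9.60 TPM for ABCA5 and 2.13 TPM for ABCA10.

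The remaining lipid transporters belong to other organs. ABCB4, the phosphatidylcholine carrier of bile, ABCB11, the bile salt export pump, ABCG5 and ABCG8, which return plant sterols to the gut, ABCG4 of the brain and ABCA12 of the skin barrier were at 0.609 TPM or less in every library. ABCG5 and ABCG8 overlap on opposite strands, and no source used here gives the counting strand. Of the 20 members below the level of the test, in all roles, 17 (85%) had a lower and 3 (15%) a higher mean in SORE6+ cells, against 60% lower and 40% higher of the 19427 genes of the series at that level that were above 0 in a library. No test was made of these low values.

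All 4 mitochondrial members were expressed. ABCB8, a component of a mitochondrial potassium channel, was the most abundant, at 38.2 and 28.2 TPM in SORE6+ cells and 29.7 and 25.4 TPM in SORE6- cells. The gates overlapped, although each SORE6+ library exceeded the SORE6- library of its own number (log2 difference 0.25, standard error 0.20). ABCB10, which stabilizes the iron importer mitoferrin and aids heme synthesis, was at 13.0 to 15.0 TPM. Of the 31-base sequences of ABCB6, 52.5% occur in other genes, nearly all in AC068946.2, so its level is uncertain.

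Of the peroxisomal members, ABCD3 was well expressed and ABCD2 was not. ABCD3, which imports branched chain and bile acid precursors, was at 42.3 and 35.5 TPM in SORE6+ cells, against 45.7 and 37.9 TPM in SORE6- cells, and the replicate 1 libraries were the higher ones in each gate. ABCD2, a carrier of fatty acids, was listed at 0 in both SORE6+ libraries and was at 0.00797 and 0.0151 TPM in SORE6- cells.

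In the lysosome and endoplasmic reticulum, ABCD4, which acts in the export of cobalamin from lysosomes, was at 16.0 and 23.1 TPM in SORE6+ cells, against 21.7 and 22.0 TPM in SORE6- cells. Its SORE6+ library of replicate 1 stood below the other 3. ABCB9, a lysosomal peptide transporter, was at 8.57 and 8.39 TPM in SORE6+ cells, against 7.72 and 7.61 TPM in SORE6- cells. The replicates of ABCB9 were close and its gates did not overlap, with a log2 difference of 0.13 and a standard error of 0.14. Of the 31-base sequences of ABCB9, 27.2% occur in other genes. The sulfonylurea receptor genes, subunits of potassium channels, were below the level of the test, ABCC9 at 0.792 to 1.23 TPM and ABCC8 at 0.0737 TPM or less.

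Of the 4 cytosolic members, 3 were the most abundant genes of the family, and ABCE1 gave the smallest unadjusted p of the family. ABCE1 (ENSG00000164163, chromosome 4, 145097932 to 145129179) splits ribosomes into subunits after termination. It was at 84.6 and 78.0 TPM in SORE6+ cells, against 105 and 97.2 TPM in SORE6- cells. The gates were apart by more than either gate's replicates differed. The means were 81.3 ± 4.68 TPM in SORE6+ cells and 101 ± 5.47 TPM in SORE6- cells (SD, n = 2 each), a log2 difference of −0.31 in each pair (standard error 0.11, unadjusted p = 0.044 and adjusted p = 0.9999 in limma). Other genes hold 23.8% of the 31-base sequences of ABCE1, and the one that holds most, ANAPC10, has 6.32%.

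The gates overlapped in all 3 members of the F family. ABCF3 was at 87.7 and 86.1 TPM in SORE6+ cells, against 73.3 and 86.4 TPM in SORE6- cells, and its SORE6- library of replicate 1 stood below the other 3. ABCF1, which takes part in translation initiation, was at 78.8 and 64.0 TPM in SORE6+ cells, against 78.5 and 67.3 TPM in SORE6- cells, so that the replicates differed more than the gates. ABCF2 was at 34.9 and 42.0 TPM in SORE6+ cells, against 32.0 and 41.3 TPM in SORE6- cells, and 48.4% of its 31-base sequences occur in other genes, mostly in AC021097.2.

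Genes that work with these transporters were taken from lists by name, and 0 of the 50 that were tested passed in limma in either direction. Of 6 genes listed for ribosome rescue and recycling, the process ABCE1 serves, 5 had a lower and 1 a higher mean difference in SORE6+ cells. Their median log2 difference was −0.17, against −0.054 over all genes tested. More of all genes tested were lower than higher in SORE6+ cells in both pairs, 42.3% against 23.2%. The 5 include EIF2S1, which acts in initiation, and the 1 is PELO. The most abundant were EIF2S1, an initiation factor subunit, at 185 and 201 TPM in SORE6+ cells and 220 and 207 TPM in SORE6- cells, and GSPT1, a termination factor, at 132 and 129 TPM in SORE6+ cells and 140 and 138 TPM in SORE6- cells. In both genes the SORE6+ libraries lay below the SORE6- libraries. PELO, a rescue factor that recruits ABCE1 to stalled ribosomes, was at 4.88 and 5.73 TPM in SORE6+ cells, against 4.43 and 4.70 TPM in SORE6- cells.

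Of 11 genes of LXR and sterol handling, 6 had a higher and 5 a lower mean difference in SORE6+ cells (median 0.0026). SREBF1, a regulator of lipid synthesis and an LXR target, was at 292 and 264 TPM in SORE6+ cells, against 288 and 298 TPM in SORE6- cells. NPC2, a carrier of lysosomal cholesterol, was at 297 and 253 TPM in SORE6+ cells, against 281 and 284 TPM in SORE6- cells. The gates overlapped in both.

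Of 17 xenobiotic receptors, uptake carriers and conjugation genes, 11 were tested, with 6 higher and 5 lower (median 0.027). GSTP1, which conjugates glutathione, was at 374 and 305 TPM in SORE6+ cells, against 332 and 290 TPM in SORE6- cells, and the gates overlapped. SLCO4A1, an uptake carrier of organic anions, was at 158 and 173 TPM in SORE6+ cells, against 124 and 139 TPM in SORE6- cells. Its gates did not overlap (log2 difference 0.33, standard error 0.11, unadjusted p = 0.0437 and adjusted p = 0.9999 in limma). It was the single gene of the 7 lists with an unadjusted p under 0.05, a level that 3.81% of all genes tested reached. NR1I2, the drug-sensing receptor PXR that induces ABCB1 in liver, was at 0.0177 TPM or less in every library.

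In the other lists too, 0 genes passed in either direction. Of 9 iron-sulfur and heme genes, 5 were higher and 4 lower in SORE6+ cells (median log2 difference 0.057), with ALAS1, the first enzyme of heme synthesis, at 112 and 115 TPM in SORE6+ cells and 105 and 108 TPM in SORE6- cells and ISCU, a scaffold for iron-sulfur clusters, at 92.0 and 96.6 TPM in SORE6+ cells and 105 and 103 TPM in SORE6- cells. Of 7 peroxisomal genes, 3 were higher and 4 lower (median −0.050), with ACAA1, a thiolase, at 104 and 106 TPM in SORE6+ cells and 112 and 109 TPM in SORE6- cells and SCP2, a lipid carrier, at 99.2 and 84.0 TPM in SORE6+ cells and 115 and 82.6 TPM in SORE6- cells. Of 4 cobalamin genes, 1 was higher and 3 lower (median −0.041), with CD320, the cobalamin receptor, at 127 and 135 TPM in SORE6+ cells and 106 and 124 TPM in SORE6- cells and MMADHC, a cobalamin chaperone, at 123 and 116 TPM in SORE6+ cells and 130 and 121 TPM in SORE6- cells.

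Of 3 ABC proteins with other symbols, the peptide transporter subunits of antigen presentation were tested. TAP1 was at 17.8 and 25.7 TPM in SORE6+ cells, against 17.6 and 26.6 TPM in SORE6- cells, and the replicate 2 libraries were the higher ones. TAP2 was at 41.1 and 39.6 TPM in SORE6+ cells, against 44.5 and 42.5 TPM in SORE6- cells, and its gates did not overlap.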

How the data were processed

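Per the methods of the study, reads were checked with FastQC and MultiQC and trimmed with Trim Galore, transcripts were quantified with salmon and summarized per gene with tximport, and DESeq2 was the authors' test. The submitters' processing notes name GRCh38, while tool versions, salmon's options and the annotation were not given in the sources used here. The authors deposited a table of gene-level TPM for every library. The study's methods state a nominal depth, but TPM keeps no read counts per library, so the precision is known only from the 2 replicates of each gate. They come from separate pairs of sorted cells of 1 line. The limma standard errors and p-values combine a gene's own spread between these sorts with a variance trend drawn from all genes tested. They can therefore differ from the spread of the gene's own replicates.

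The 17642 genes that reached 1 TPM in 2 or more libraries were tested on log2(TPM + 1) with limma 3.58.1 in R 4.3.3, with the gate as the only term, a trend in the prior variance and Benjamini-Hochberg adjustment. Passing required an adjusted p under 0.1 and a 1.5-fold difference. Alternatives were a pseudocount of 0.1, no filter, relative log expression or upper-quartile factors computed on TPM, the replicate block, protein-coding genes with and without it, robust limma and each library left out. Types, coordinates and shared 31-base sequences came from GENCODE v29, which held all 46 members, and promoters from RefSeq. Tables and figures used Python 3.11.15, pandas 2.3.3 and matplotlib 3.10.9.

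Values are given for ABCB1, ABCC1 and ABCG2, for the 2 most abundant members of each role and for the 4 of largest difference in each direction. No gene of a partner list passed, so the 2 most abundant of each are named. Other genes were named after their values were seen. The members, roles and lists were chosen with earlier results of these data known. The values of 2 members and some markers are not reported here.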

Additional observations from a re-analysis of the deposited data

How the results depend on the processing

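No ABC gene and no gene of the partner lists passed under any alternative run. Over all genes, 71 passed as higher and 93 as lower in SORE6+ cells with the replicate block on protein-coding genes, and 0 in each direction with the replicate block over all genes tested or without the block. In the fit with the block on protein-coding genes, ABCE1 (limma adjusted p = 0.0499) and ABCA5 (limma adjusted p = 0.0968) had an adjusted p under 0.1 below 1.5-fold, against 10.2% of the genes tested there. Deviations from the gate means correlated at 0.344 across genes between libraries that share a number, where genes do not count as independent replicates. The first principal component held 49.8% of the variance and set the replicate 1 libraries of both gates apart from those of replicate 2. The fit on the gate alone counts this difference as spread, so its standard errors can be larger. That of ABCC3 was 0.16, and 0.070 with the block on protein-coding genes. No source used here says that the number marks the pair.

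The median log2 difference of the members was −0.033 with no filter, 0.057 with relative log expression factors, 0.042 with upper-quartile factors, and it ranged from −0.096 to 0.041 when 1 library was left out. The median over all genes tested was −0.00077 and −0.014 with these factors. The members with SORE6+ libraries below both SORE6- libraries numbered 9 of 46 with no filter (19.6%, against 18% of all genes in that fit). With 1 library left out, fewer libraries overlap less often, and 6 to 11 members lay below (23.1% to 42.3%, against 32.9% to 47.9% of all genes tested) and 8 to 10 above (30.8% to 38.5%, against 22.4% to 28.0%).

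Leaving out 1 library leaves its gate with a single one, which is assumed to vary like the other gate. Of 17 named members tested, 11 kept their direction under every alternative run. ABCA7 changed to 0.0026 with relative log expression factors, and ABCC5 to 0.025 with these and 0.010 with upper-quartile factors. With 1 library left out, the log2 difference ranged from −0.23 to 0.29 for ABCA2, −0.32 to 0.21 for ABCA7, −0.079 to 0.21 for ABCC1, −0.14 to 0.072 for ABCC5, −0.23 to 0.030 for ABCD3 and −0.43 to 0.079 for ABCD4. ABCE1 ranged from −0.37 to −0.25 and ABCG1 from 0.34 to 0.43. The cause of these changes was not tested.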

Other observations

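CFTR, the chloride channel of the ABC family, was listed at 0 in both SORE6+ libraries and was at 1.87 and 0.723 TPM in SORE6- cells. It did not reach the level of the main test, and with no filter on low values it had an unadjusted p of 0.0203 and an adjusted p of 0.912 in limma. It was 1 of the 3 ABC proteins with other symbols, and 2.12% of its 31-base sequences occur in other genes.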
